A study of Arabidopsis thaliana with 12 samples.

Results

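The comparison described here sets the CERK1_3E line of Arabidopsis thaliana against the CERK1_WT line, and it rests on 4 of the 12 libraries of the series. CERK1_3E plants were cerk1 mutants carrying the transgene pCERK1::CERK1_3E-FLAG, and CERK1_WT plants were cerk1 mutants carrying pCERK1::CERK1-FLAG, with 2 libraries per line chosen by the sample titles. The CERK1_3D and CERK1_3A lines, built on the same background with the same promoter and tag, had 2 libraries each and lent their spread to the test. All were untreated whole seedlings of 10 days, so none of these plants had been given an elicitor. The labels give neither the residues changed in 3E, nor the length of the promoter fragment, nor the number of independent transformants, so the construct and the individual line cannot be told apart. In whole seedlings, fewer cells of a type and less RNA per cell cannot be told apart either.

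CERK1 is a LysM receptor kinase at the plasma membrane that is needed to perceive chitin, a polymer of fungal cell walls, together with other LysM receptor kinases such as LYK5. Its activation leads to MAP kinase signalling, calcium influx and induction of WRKY factors and other early defence genes. TWD1, the gene next to CERK1 on chromosome 3, encodes an FKBP-type immunophilin that binds ABCB auxin transporters and is needed for their function at the plasma membrane. The question put by the comparison is whether the 3E form alters the transcriptome of unchallenged seedlings.

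The 2 stretches of genome shown next separate neighbouring genes whose levels did not overlap between CERK1_3E and CERK1_WT, as described further on. They are given 5′ to 3′ on the minus strand, on which all 4 genes lie, from RefSeq's TAIR10.1 assembly. The first runs from the end of TWD1 to the start of CERK1 (chr3:7618672-7618850) and the second from the end of PERK15 to the start of RABG3d (chr1:19469587-19469819). Capitals mark the W-box core TTGAC, the letters bound by WRKY factors, searched on both strands, where it reads GTCAA on the reverse strand.
CERK1-TWD1: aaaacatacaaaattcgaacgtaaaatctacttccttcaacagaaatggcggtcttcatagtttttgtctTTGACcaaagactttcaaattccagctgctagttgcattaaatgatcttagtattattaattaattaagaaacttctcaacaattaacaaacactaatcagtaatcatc
RABG3d-PERK15: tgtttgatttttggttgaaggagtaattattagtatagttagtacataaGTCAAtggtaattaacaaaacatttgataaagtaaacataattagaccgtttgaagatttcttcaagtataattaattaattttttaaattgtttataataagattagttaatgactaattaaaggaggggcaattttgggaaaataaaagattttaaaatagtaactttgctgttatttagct
Each stretch held 1 match. Of 27443 protein-coding genes on the nuclear chromosomes, 35.5% held the core in the 179 bases before their start and 42.9% in the 233 bases before it. These windows have a fixed length and can run into a neighbouring gene. The core ACGTG of abscisic acid response elements had 0 matches in either stretch, and 18.5% and 21.8% of genes held it in windows of those lengths. A match describes letters only.

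CERK1 itself was checked first, because the transgene carries it. Normalised read counts (CPM, scaled to library size) were 114 and 129 in the CERK1_3E libraries, against 61.1 and 52.5 in the CERK1_WT libraries. The lines did not overlap, and the difference was 2.14-fold (log2 1.1, SE 0.11, 95% interval 0.85 to 1.34). In edgeR's quasi-likelihood test with Benjamini-Hochberg adjustment it missed the threshold of 0.05 (adjusted p = 0.0592), whereas DESeq2 called it (adjusted p = 5.47e-14). CERK1 stood at 115 and 121 CPM in CERK1_3D and at 80.2 and 73.3 CPM in CERK1_3A. Against CERK1_3D the log2 difference of CERK1_3E was 0.04 (95% interval -0.20 to 0.29, edgeR adjusted p = 0.999), and against CERK1_3A it was 0.66 (0.41 to 0.91, adjusted p = 0.46). Reads from the native locus and from the transgene were counted together.

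TWD1 was the only gene called between the lines by edgeR. It stood at 264 and 204 CPM in CERK1_3E, against 24.2 and 20.2 CPM in CERK1_WT. Each CERK1_3E library lay far above both CERK1_WT libraries, and TWD1 rose 10.5-fold (log2 3.40, SE 0.20, 95% interval 2.94 to 3.85, edgeR adjusted p = 0.00331). Its group means were 234 ± 42 CPM in CERK1_3E and 22.2 ± 2.8 CPM in CERK1_WT (SD, n = 2 each). Among the other mutated lines it had 182 and 132 CPM in CERK1_3D and 18.9 and 17.9 CPM in CERK1_3A. The log2 difference of CERK1_3E was 0.58 against CERK1_3D (95% interval 0.17 to 0.99, edgeR adjusted p = 0.999) and 3.67 against CERK1_3A (adjusted p = 0.00204). TWD1 was thus called against CERK1_WT and CERK1_3A and not against CERK1_3D.

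CERK1 (AT3G21630) spans chr3:7615357-7618671 and TWD1 (AT3G21640) spans chr3:7618851-7621477, both on the minus strand, so TWD1 ends 179 bases before CERK1 starts. In the direction of transcription TWD1 is thus the upstream neighbour, on the side where a CERK1 promoter fragment would be taken. How much of TWD1 the transgene holds, if any, is not given in the labels. Whether the TWD1 reads came from its native locus or from the transgene was not tested, since gene-level counts do not place reads along the gene. The 3 genes on each side of the pair had log2 differences of -0.48 to -0.02. AT3G21620, the next gene beyond CERK1, had 3.83 and 3.96 CPM in CERK1_3E, against 5.62 and 5.25 CPM in CERK1_WT (log2 -0.48, edgeR adjusted p = 0.9997). For AT3G21620 the CERK1_3E libraries were below all 6 others and the CERK1_WT libraries above all 6 others. AT3G21600 was also lower in CERK1_3E without overlap (log2 -0.13). AT3G21650, the next gene beyond TWD1, had 10.0 and 12.5 CPM in CERK1_3E, against 11.9 and 11.9 CPM in CERK1_WT, and the lines overlapped.

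**Figure D1:**
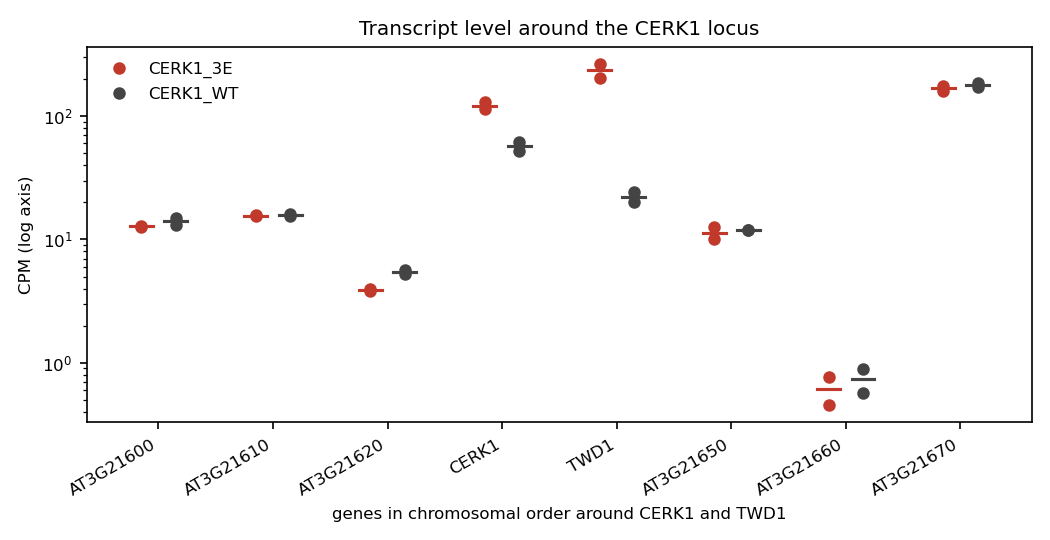
Levels of CERK1, TWD1 and the 3 genes on each side of the pair, in CPM on a log axis and in chromosomal order; points are the 2 libraries of CERK1_3E (red, left) and CERK1_WT (grey, right) and bars are line means. CERK1 averaged 121 CPM in CERK1_3E and 56.8 CPM in CERK1_WT, and TWD1 averaged 234 CPM in CERK1_3E and 22.2 CPM in CERK1_WT. The 6 neighbours differ less, with AT3G21620 and AT3G21600 lower in CERK1_3E without overlap.

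The list of TWD1 and genes for proteins that work with it had a median log2 difference near 0, although many members did not overlap between the lines. Of 23 measured genes for TWD1 partners, other immunophilins and auxin transporters, 1 was called, TWD1 itself, where 0.0047% of all 21274 genes tested were called higher and 0% lower. The lines did not overlap for 6 of these genes in the higher direction, TWD1 among them, and 5 in the lower, against 16.1% and 16.7% of all genes. In either direction this was 47.8% of the list, above the 32.8% of all genes. The auxin exporter gene ABCB4 had 82.2 and 63.2 CPM in CERK1_3E, against 91.8 and 84.9 CPM in CERK1_WT (log2 -0.28, SE 0.26). For the exporter gene PIN4 the values were 132 and 132 CPM in CERK1_3E and 112 and 120 CPM in CERK1_WT (log2 0.18, SE 0.09). The list's median log2 fold change was -0.02, where that of all genes was 0.00.

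Genes of chitin perception likewise had a median log2 difference near 0. Without overlap 4 were higher in CERK1_3E, CERK1 among them, and 2 lower, or 37.5% of the list beside 32.8% of all genes. Of 16 measured genes for LysM receptors and their partners, CERK1 alone had an unadjusted p under 0.05, a level that 3.37% of all genes reached, and the list's median log2 fold change was 0.03. The receptor kinase gene LYK3 was lower without overlap, with 6.80 and 6.63 CPM in CERK1_3E, against 8.01 and 7.73 CPM in CERK1_WT (log2 -0.23, SE 0.15). LYM2, which encodes a chitin-binding LysM protein of the plasma membrane, had 25.1 and 29.3 CPM in CERK1_3E, against 26.3 and 20.7 CPM in CERK1_WT.

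Across all genes few were called between the lines, with 2 libraries of each. The 2.14-fold difference of CERK1 missed edgeR's threshold, so few calls do not show that the other genes were equal. Beside the 1 gene called higher in CERK1_3E, 0 were called lower, and 379 genes higher and 337 lower had an unadjusted p under 0.05, which is 1.78% and 1.58% of the genes tested. DESeq2 called 24 higher and 15 lower (0.113% and 0.0705%). The count of edgeR calls moved to 9 without CERK1_3E replicate 1, 3 without CERK1_3E replicate 2, 8 without CERK1_WT replicate 1, 9 without CERK1_WT replicate 2, and 2 without either CERK1_3D library. TWD1 was among the calls under each of the 17 alternative settings. The 4 libraries held 37490879 and 37091232 counts in CERK1_3E and 41288819 and 37601031 counts in CERK1_WT. At least 2-fold apart within a line were 194 genes in CERK1_3E and 217 in CERK1_WT, on CPM + 1.

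**Figure D2:**
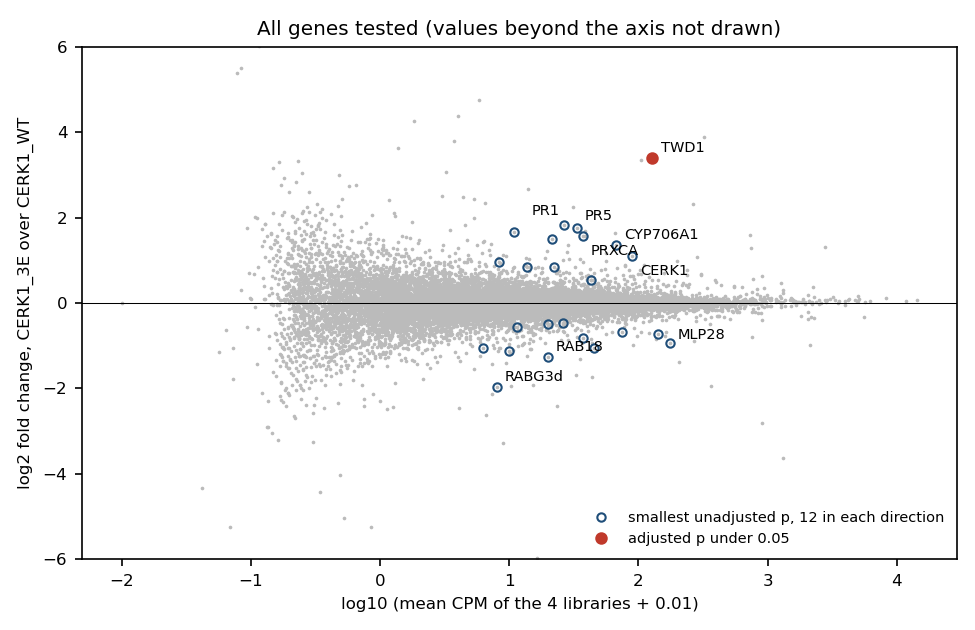
Each dot is a gene tested, by its mean CPM over the 4 libraries (horizontal, log10) and its log2 fold change of CERK1_3E over CERK1_WT (vertical). TWD1 (filled red) is the gene called, and open circles mark the 12 genes in each direction with the smallest unadjusted p, at a mean of at least 5 CPM and with no overlap between the lines.

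The genes with the most evidence were taken as the 12 with the smallest p in each direction among genes at a mean of at least 5 CPM with no overlap. TWD1 is among them and the counts include it, and none of the others passed edgeR's adjusted threshold. Since no overlap and a small p chose these 24 genes, those values describe them and test nothing. DESeq2, run on the same counts, called 20 of the 24. In 17 of them both CERK1_3E libraries lay outside the range of the 6 libraries of the other lines, in 13 both CERK1_WT libraries did, in 8 both were so and in 2 neither. Over all genes tested those shares were 5.66% for CERK1_3E and 4.9% for CERK1_WT. Choosing genes without overlap between these lines favours such positions, so the counts among the 24 are descriptive too.

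Several of the genes higher in CERK1_3E stood apart from every other line. CYP706A1, a cytochrome P450 gene, had 97.1 and 94.8 CPM in CERK1_3E, against 36.1 and 39.1 CPM in CERK1_WT, with 40.0 and 51.8 CPM in CERK1_3D and 48.0 and 42.7 CPM in CERK1_3A. The log2 differences of CERK1_3E were 1.35 against CERK1_WT (SE 0.13, edgeR adjusted p = 0.0592), 1.06 against CERK1_3D (adjusted p = 0.177) and 1.08 against CERK1_3A (adjusted p = 0.106). It was called under 7 of the 17 alternative settings, among them the fits without either CERK1_3D library. The orphan gene QQS, which influences the balance of starch and protein, had 17.1 and 18.1 CPM in CERK1_3E, against 9.66 and 9.79 CPM in CERK1_WT (log2 0.86, SE 0.17). In CERK1_3A QQS had 6.26 and 4.53 CPM, and the log2 difference of CERK1_3E from that line was 1.70 (edgeR adjusted p = 0.0673).

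PR1, PR5 and PRXCA, which act in defence, were among the 12 higher genes. PR1, the standard transcript marker of salicylic acid signalling, had 34.9 and 48.7 CPM in CERK1_3E, against 16.1 and 7.44 CPM in CERK1_WT (log2 1.82, SE 0.32, edgeR adjusted p = 0.564). The CERK1_WT libraries of PR1 were at least 2-fold apart from each other, and without CERK1_WT replicate 1 the gene was called. PR5, a thaumatin-like protein gene of the same response, had 43.2 and 59.3 CPM in CERK1_3E, against 17.2 and 13.3 CPM in CERK1_WT (log2 1.75, SE 0.24, adjusted p = 0.269). PRXCA (PRX33), an apoplastic peroxidase gene of the oxidative burst, had 49.3 and 61.5 CPM in CERK1_3E, against 21.5 and 15.6 CPM in CERK1_WT (log2 1.57, SE 0.20, adjusted p = 0.177). Its close copy PRXCB (PRX34), with which it could share reads, had 137 and 125 CPM in CERK1_3E, against 126 and 103 CPM in CERK1_WT. For PR1, PR5 and PRXCA the CERK1_3E libraries were above all 6 others. Their distance from CERK1_3D was log2 1.17, 0.64 and 0.86, none of them called (edgeR adjusted p = 0.999 for each). For PR1 and PRXCA the CERK1_WT libraries were also below all 6 others. The other mutated lines lay above CERK1_WT as well. Log2 differences of PR1, PR5 and PRXCA from CERK1_WT were 0.66, 1.11 and 0.71 in CERK1_3D, and 0.84, 0.45 and 0.41 in CERK1_3A.

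The reverse pattern, with CERK1_WT rather than CERK1_3E standing apart, was seen for genes such as AT5G46190 and MLP28. AT5G46190, a KH-domain RNA-binding protein gene, had 14.5 and 18.9 CPM in CERK1_3E, against 4.18 and 6.30 CPM in CERK1_WT, and 14.5 to 19.6 CPM in the other mutated lines. MLP28, a major latex protein-like gene, had 122 and 118 CPM in CERK1_3E, against 219 and 241 CPM in CERK1_WT (log2 -0.94, SE 0.12, edgeR adjusted p = 0.177). In CERK1_3D and CERK1_3A MLP28 ranged over 104 to 142 CPM, and the log2 difference of CERK1_3E was 0.14 and -0.09 from these lines.

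RABG3d and PERK15, next to each other on chromosome 1 and separated by the second stretch printed above, stood apart in opposite directions. RABG3d, a Rab7-type GTPase gene of traffic to the vacuole, had 2.23 and 4.26 CPM in CERK1_3E, against 10.8 and 14.7 CPM in CERK1_WT (log2 -1.97, SE 0.28, edgeR adjusted p = 0.269). It lay between 15.6 and 16.8 CPM in CERK1_3D and CERK1_3A, so both CERK1_3E libraries were below the other 6. PERK15, a proline-rich extensin-like receptor kinase gene, had 29.1 and 28.3 CPM in CERK1_3E, against 18.0 and 14.2 CPM in CERK1_WT (log2 0.83, SE 0.14, adjusted p = 0.564). Its range was 13.1 to 16.4 CPM in the other mutated lines. With CERK1 and TWD1, this was 1 of 2 pairs of adjacent genes among the 24.

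Other genes lower in CERK1_3E covered several functions. PPI1, a proton pump interactor gene, had 95.3 and 117 CPM in CERK1_3E, against 189 and 164 CPM in CERK1_WT (log2 -0.73, SE 0.13, edgeR adjusted p = 0.566), and 168 to 192 CPM in the other mutated lines. ORG1 had 55.7 and 58.5 CPM in CERK1_3E, against 96.5 and 85.8 CPM in CERK1_WT. SAG29 (SWEET15), a sugar transporter gene of senescing tissue, had 29.1 and 24.5 CPM in CERK1_3E, against 44.9 and 49.8 CPM in CERK1_WT. For SAG29 the CERK1_3A libraries, at 26.8 and 31.2 CPM, overlapped those of CERK1_3E. AT1G59218, a disease resistance gene of the CC-NBS-LRR class with a near-identical copy that makes its counts uncertain, had 26.7 and 32.7 CPM in CERK1_3E, against 65.3 and 57.4 CPM in CERK1_WT.

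**Figure D3:**
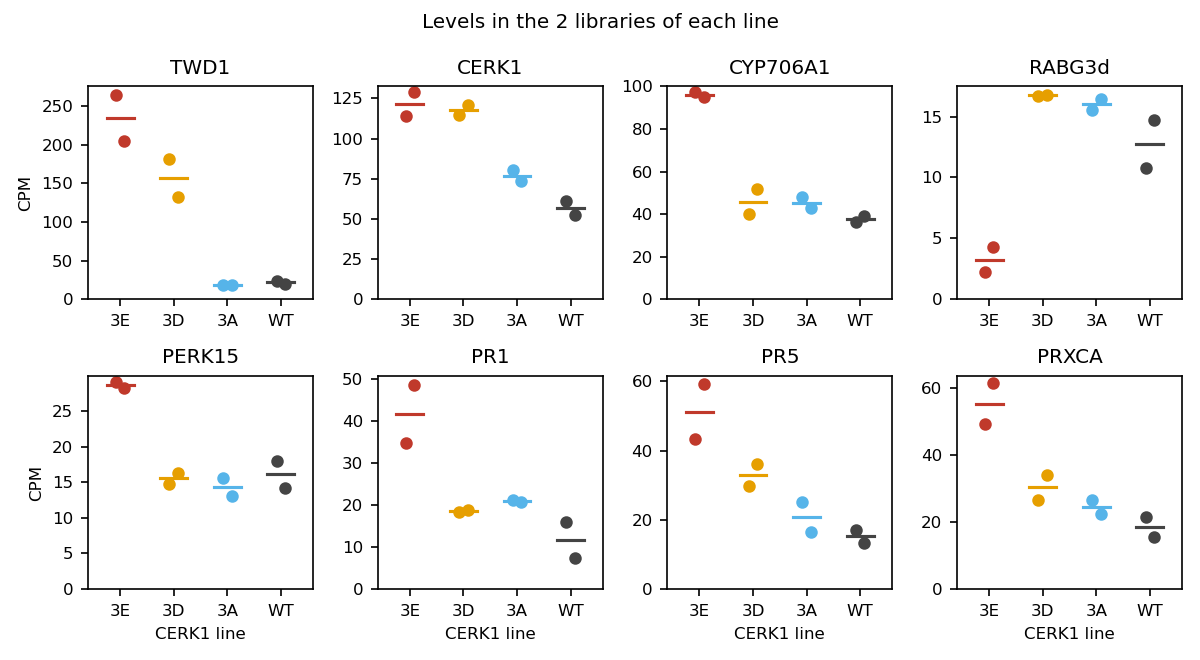
CPM of 8 genes in the 2 libraries of each line (points) with the line mean (bar), each axis starting at 0. TWD1 and CERK1 are high in CERK1_3E and CERK1_3D, while CYP706A1, PERK15, PR1, PR5 and PRXCA are highest and RABG3d is lowest in CERK1_3E.

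Against the other mutated lines directly, edgeR called 3 genes between CERK1_3E and CERK1_3D (0.0141% of genes, with 4.03% at an unadjusted p under 0.05) and 2 between CERK1_3E and CERK1_3A (0.0094%, with 2.45%). AT1G58936 had 0.159 and 0.164 CPM in CERK1_3E, against 4.62 and 3.47 CPM in CERK1_3D (log2 -4.62, adjusted p = 0.0319). It lay between 0.108 and 0.264 CPM in CERK1_WT and CERK1_3A, so CERK1_3D was the line that stood apart. Its call was lost with the replicate block (adjusted p = 0.0587), with limma-voom (0.144) and on leaving out each of the 8 libraries in turn (0.0547 to 0.251). The unannotated locus newGene_80 had 1037 and 1081 CPM in CERK1_3E, against 47.0 and 76.5 CPM in CERK1_3D (log2 4.1, adjusted p = 0.0123). It had 475 and 388 CPM in CERK1_WT, so that CERK1_3E was highest of the lines for this locus.

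Against CERK1_3A the calls were TWD1 and ARP9, an actin-related protein gene. ARP9 had 34.0 and 34.8 CPM in CERK1_3E, against 17.3 and 15.9 CPM in CERK1_3A (log2 1.05, edgeR adjusted p = 0.0382). Its call was lost with the replicate block (adjusted p = 0.0789), with limma-voom (0.053) and without any single library of CERK1_3E, CERK1_WT or CERK1_3A (0.0965 to 0.131), whereas TWD1 was called against CERK1_3A under all 16 settings. ARP9 stood at 36.8 and 39.0 CPM in CERK1_WT and at 35.8 and 39.0 CPM in CERK1_3D, so CERK1_3A was the line that stood apart. All these contrasts share the CERK1_3E libraries. The 3 calls against CERK1_3D became 11 and 6 without CERK1_3E replicate 1 and 2, and 11 and 7 without CERK1_3D replicate 1 and 2. The 2 calls against CERK1_3A became 9 and 6 without CERK1_3E replicate 1 and 2, 6 and 15 without CERK1_3A replicate 1 and 2, and 6 without either CERK1_3D library.

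Gene lists of known pathways were then described by counts and medians. Genes of abscisic acid, drought and cold responses mostly had lower values in CERK1_3E. Of 23 measured members, 16 had both CERK1_3E libraries below both CERK1_WT libraries and 0 had both above, where 16.7% and 16.1% of all genes did so. An unadjusted p under 0.05 was found for 8 members, each lower, and for 0 higher members, against 1.58% and 1.78% of all genes. None passed edgeR's adjusted threshold, and DESeq2 called RAB18. The median log2 fold change of the list was -0.35, and it ranged over -0.46 to -0.22 across the alternative settings. It was -0.02 in CERK1_3D and -0.23 in CERK1_3A, set against the same CERK1_WT libraries.

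RAB18, a dehydrin gene that responds to abscisic acid, had 8.82 and 14.5 CPM in CERK1_3E, against 25.3 and 30.6 CPM in CERK1_WT (log2 -1.26, SE 0.28, edgeR adjusted p = 0.9997, DESeq2 adjusted p = 0.00116). RD29A (LTI78), a stress marker gene of drought and cold, had 33.5 and 29.7 CPM in CERK1_3E, against 42.0 and 41.8 CPM in CERK1_WT (log2 -0.41, SE 0.10). For RD29A the CERK1_WT libraries were above all 6 others, and CERK1_3A, at 33.8 and 33.0 CPM, lay near CERK1_3E. NCED3, the gene of the rate-limiting enzyme of abscisic acid synthesis under drought, had 7.01 and 5.92 CPM in CERK1_3E, against 10.6 and 9.36 CPM in CERK1_WT (log2 -0.62, SE 0.18). In none of these 3 genes did the lines overlap. The cold-responsive genes KIN1 and COR15A differed by log2 -0.89 and -0.74, and LEA7 and RD29B (LTI65) by -1.41 and -1.37, each with an SE of 0.19 to 0.60.

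**Figure D4:**
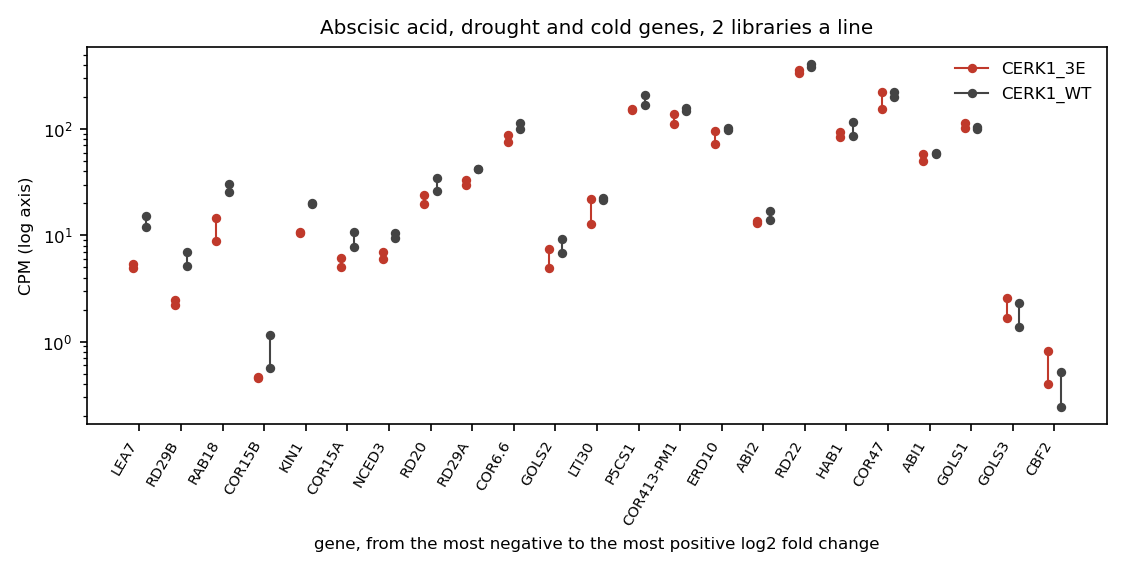
CPM on a log axis of the 23 measured abscisic acid, drought and cold genes, ordered by log2 fold change of CERK1_3E over CERK1_WT, with the 2 libraries of each line joined by a line (CERK1_3E red, CERK1_WT grey). For 16 of the 23 genes both CERK1_3E libraries lie below both CERK1_WT libraries.

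Markers of root hairs also had lower values in CERK1_3E. Of 17 measured root hair markers, 9 were lower in CERK1_3E without overlap and 0 higher (16.7% and 16.1% of all genes), 16 of 17 had a log2 fold change below 0, and the list's median was -0.49. Set against the same CERK1_WT libraries, the median was -0.04 in CERK1_3D and -0.42 in CERK1_3A, so CERK1_3A lay near CERK1_3E. Their summed level was 112 and 84.0 CPM in CERK1_3E, against 142 and 120 CPM in CERK1_WT. RHD2, the root hair NADPH oxidase gene, had 15.7 and 12 CPM in CERK1_3E, against 21.1 and 17.5 CPM in CERK1_WT, while COW1 had 5.37 and 4.34 CPM in CERK1_3E and 4.96 and 4.70 CPM in CERK1_WT. None of the 17 had an unadjusted p under 0.05. Of 17 measured endodermis and root vascular markers, 4 were lower and 1 higher without overlap, or 29.4% beside 32.8% of all genes. Their median log2 fold change was -0.21, with -0.04 in CERK1_3D and -0.22 in CERK1_3A against the same CERK1_WT libraries. These markers summed to 415 and 320 CPM in CERK1_3E, against 417 and 413 CPM in CERK1_WT. The 30 photosynthesis genes that stand for mesophyll summed to 107082 and 113712 CPM in CERK1_3E, against 94518 and 115271 CPM in CERK1_WT. Guard cell markers summed to 192 and 189 CPM in CERK1_3E, against 189 and 190 CPM in CERK1_WT, but single members differed. Of 15 measured guard cell markers, 6 were higher and 4 lower without overlap, or 66.7% beside 32.8% of all genes. Their median log2 fold change was 0.09. GORK had 7.20 and 8.00 CPM in CERK1_3E, against 11.2 and 10.6 CPM in CERK1_WT (log2 -0.52). Of 11 seed maturation markers 2 passed the filter on low counts, and the storage protein gene CRA1 had 0.106 and 0 CPM in CERK1_3E, against 1.75 and 0.0811 CPM in CERK1_WT. The part of root content in the other lists was not tested.

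Salicylic acid genes more often had higher values in CERK1_3E. Of 26 measured members 10 were higher and 2 lower in CERK1_3E without overlap (16.1% and 16.7% of all genes). An unadjusted p under 0.05 was found for 4 higher and 0 lower members (1.78% and 1.58% of all genes), and the median log2 fold change was 0.19. The medians of the other mutated lines, set against the same CERK1_WT libraries, were 0.21 in CERK1_3D and 0.15 in CERK1_3A. Beside PR5 and PR1, these 4 were CBP60G, a transcription factor gene that promotes salicylic acid synthesis, and BGL2 (PR2), a glucanase gene. CBP60G had 13.1 and 14.1 CPM in CERK1_3E, against 9.12 and 6.30 CPM in CERK1_WT (log2 0.82, SE 0.19, edgeR adjusted p = 0.9997). BGL2 had 22.8 and 46.9 CPM in CERK1_3E, against 19.7 and 15 CPM in CERK1_WT, with the CERK1_3E libraries at least 2-fold apart from each other. NPR1, the salicylic acid receptor gene, had 30.9 and 33.3 CPM in CERK1_3E, against 27.3 and 28.2 CPM in CERK1_WT.

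Immediate early immunity markers, which respond rapidly to elicitors, had a median log2 fold change of 0.63. Of 29 measured members 28 had a log2 fold change above 0, where 50.3% of all genes did, and 9 were higher without overlap and 0 lower (16.1% and 16.7% of all genes). In either direction 31.0% of the list did not overlap, near the 32.8% of all genes. CERK1_3D had a median of 0.51 and CERK1_3A of 0.13 against the same CERK1_WT libraries. The 5 members with an unadjusted p under 0.05, all higher, where 1.78% of all genes were, are TCH3, PEN3, WRKY33, CYP81F2 and WRKY53. TCH3, a calmodulin-like gene induced by touch, had 47.3 and 101 CPM in CERK1_3E, against 36.6 and 38.7 CPM in CERK1_WT (log2 0.97, SE 0.34), and 52.9 and 84.6 CPM in CERK1_3D. PEN3, an ABC transporter gene of pathogen defence, had 276 and 293 CPM in CERK1_3E, against 245 and 171 CPM in CERK1_WT (log2 0.45, SE 0.17). The libraries of a line differed from each other in this list: its summed level was 588 and 834 CPM in CERK1_3E, against 483 and 438 CPM in CERK1_WT. FRK1, a receptor kinase gene that is a standard flg22 marker, had 2.63 and 2.62 CPM in CERK1_3E, against 1.96 and 0.541 CPM in CERK1_WT. The range of the median over the alternative settings was 0.33 to 0.79.

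Of 20 defence WRKY factors 7 were higher and 0 lower without overlap (16.1% and 16.7% of all genes). In either direction this was 35% of the list beside 32.8% of all genes. WRKY51, WRKY15 and WRKY62 had an unadjusted p under 0.05, all higher, where 1.78% of all genes were. The list's median log2 fold change was 0.25, with 0.15 in CERK1_3D and 0.12 in CERK1_3A against the same CERK1_WT libraries. WRKY51 had 1.51 and 1.39 CPM in CERK1_3E, 0.591 and 0.622 CPM in CERK1_WT, and 1.72 and 1.63 CPM in CERK1_3A. WRKY15 had 24.4 and 28.2 CPM in CERK1_3E, against 20.8 and 20.4 CPM in CERK1_WT. The MAP kinase gene MPK3, which acts downstream of pattern receptors, had 41.5 and 60.8 CPM in CERK1_3E, against 39.1 and 38.1 CPM in CERK1_WT. Among 23 genes of flagellin and peptide perception, 4 were higher and 2 lower without overlap, with a median log2 fold change of 0.03. That is 26.1% of the list, below the 32.8% of all genes. SOBIR1, a receptor kinase gene that partners receptor-like proteins, had 59.9 and 82.3 CPM in CERK1_3E, against 53.2 and 46.8 CPM in CERK1_WT.

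Jasmonate genes were higher without overlap in 11 and lower in 3 of 28, beside 16.1% and 16.7% of all genes, with a median log2 fold change of 0.15. Against the same CERK1_WT libraries the median was 0.42 in CERK1_3D and 0.10 in CERK1_3A. The defensin gene PDF1.3, one of a family of close copies, had 8.79 and 12.3 CPM in CERK1_3E, against 3.57 and 4.49 CPM in CERK1_WT. Of 27 auxin response genes 12 were higher and 1 lower without overlap (16.1% and 16.7% of all genes), and 3 higher and 0 lower members had an unadjusted p under 0.05 (1.78% and 1.58% of all genes). The median was 0.21 (range over the settings 0.14 to 0.29), with 0.04 in CERK1_3D and 0.02 in CERK1_3A against the same CERK1_WT libraries. DFL1 (GH3.6), whose enzyme conjugates auxin to amino acids, had 48.2 and 52.8 CPM in CERK1_3E, against 35.0 and 34.6 CPM in CERK1_WT (log2 0.54, SE 0.11, edgeR adjusted p = 0.9997). CERK1_3A, at 49.9 and 41.8 CPM for DFL1, overlapped CERK1_3E. The auxin receptor gene TIR1 had 114 and 127 CPM in CERK1_3E, against 103 and 113 CPM in CERK1_WT.

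Iron deficiency genes were lower without overlap in 7 and higher in 2 of 17, beside 16.7% and 16.1% of all genes. The median was -0.20, with -0.13 in CERK1_3D and -0.15 in CERK1_3A against the same CERK1_WT libraries. The transcription factor gene bHLH39 had 3.91 and 3.19 CPM in CERK1_3E, against 6.19 and 6.63 CPM in CERK1_WT (log2 -0.85, SE 0.19, edgeR adjusted p = 0.9997), and FRO3, a ferric reductase gene, had 45.2 and 38.3 CPM in CERK1_3E, against 59.1 and 51.9 CPM in CERK1_WT. For both genes the CERK1_WT libraries were above all 6 others. CERK1_3D had 4.24 and 3.47 CPM for bHLH39, and CERK1_3A had 43.9 and 37.8 CPM for FRO3, so these lines lay near CERK1_3E. FER4, a gene of the iron store ferritin, had 21.6 and 21.6 CPM in CERK1_3E, against 16.1 and 15.2 CPM in CERK1_WT. Flavonoid and anthocyanin genes were lower without overlap in 8 and higher in 1 of 18, and phosphate starvation genes in 6 and 1 of 18. Their medians were -0.17 and -0.18, and none had an unadjusted p under 0.05. Of 17 phenylpropanoid and lignin genes 1 had a log2 fold change above 0 and 1 was lower without overlap, with a median of -0.07. Lists of the circadian clock, the cell cycle, brassinosteroid and aliphatic glucosinolates had medians of 0.02, 0.00, -0.01 and -0.04.

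**Figure D5:**
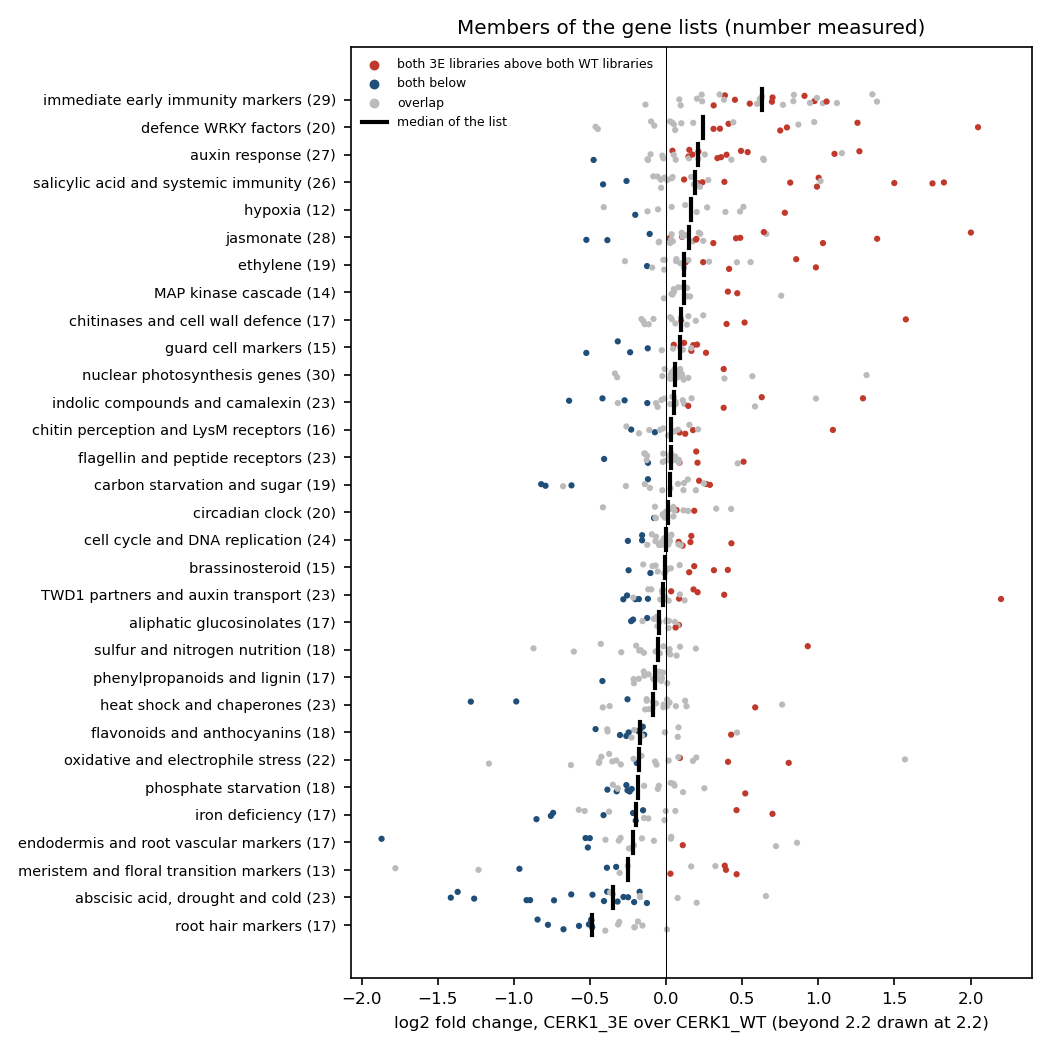
Log2 fold change of CERK1_3E over CERK1_WT for the measured members of 31 gene lists, number in brackets, with the list median as a black bar; red and blue dots are members with no overlap between the lines, grey ones overlap. Medians run from 0.63 for immediate early immunity markers to -0.49 for root hair markers; the seed maturation list, with 2 members above the filter, is not drawn.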

How the data were processed

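Whole-number counts per gene were deposited for the 8 libraries of the lines in 1 table, with no normalization by the authors, on TAIR10 per the submitters' processing notes. The aligner, counting tool, strand setting and filters are not given in the sources used here. RNA was total RNA extracted with RNAiso Plus, per the labels' protocols. Of 27612 entries, 246 are unannotated loci (newGene), and 26694 of the 27366 annotated loci matched a row of a TAIR10.1 gene table used for names.

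Counts were tested with edgeR 4.0.16 (R 4.3.3) by quasi-likelihood on all 8 libraries, line as the only term, TMM factors, filterByExpr (21274 genes kept), two-sided, Benjamini-Hochberg adjustment, threshold 0.05. Residual degrees of freedom were 4, and the common biological coefficient of variation was 0.170. DESeq2 1.42.0, limma 3.58.1 (voom), other scalings, filters, a replicate block and leaving out each library were alternatives. CPM is scaled by TMM. Scripts were tested on simulated data.

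The comparison, tests and lists were chosen with earlier results of these data known. The 32 lists held 669 entries, of which 28 were dropped for a mismatch of symbol and locus or as repeats. Named genes are the calls, CERK1 and TWD1 with 3 neighbours each side, the 12 with the smallest p each way at a mean of at least 5 CPM without overlap, the 6 with the largest fold each way, the 2 members of each list with the smallest p and the 10 DESeq2 calls with the smallest adjusted p. Calls of the other contrasts, further list members with an unadjusted p under 0.05, and PRXCB, NPR1, FRK1, TIR1, LYK3, LYM2, PIN4, ABCB4, RHD2, COW1 and AT4G19050 were added after their values were seen. The main fit did not pair libraries by replicate number. Replicate differences of CERK1_3E and CERK1_WT correlated with r of 0.114 across genes, and those of any lines with -0.001 to 0.228. These values do not settle whether libraries of the same number share a weak effect. No pair of libraries agreed within sampling noise. The labels do not say whether the replicates of a line are separate cultures. The p-values therefore reflect the spread among these libraries alone, and that spread may be technical. Of the genes called between CERK1_3E and CERK1_3D, 1 is not reported here.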

Additional observations from a re-analysis of the deposited data

How the results depend on the processing

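Between CERK1_3E and CERK1_WT edgeR called 1 gene. The count was 2 with library totals, 39 with DESeq2, 3 with limma-voom, 3 with no low count filter, 4 in a fit of the 4 libraries compared, and 1 to 9 when 1 library was left out, where the remaining library of a line is taken to vary like the others. With the replicate block it was 1. Against CERK1_3D the 3 calls became 40 with DESeq2, 2 with limma-voom, 2 with the replicate block, 2 among genes averaging 5 CPM or more, and 3 to 11 without 1 library. Against CERK1_3A the 2 calls became 6 with library totals, 29 with DESeq2, 1 with limma-voom, 5 with no low count filter, 1 with the replicate block and 2 to 15 without 1 library. The cause was not tested. TWD1 was called throughout, at log2 3.21 to 3.57. CERK1 (log2 0.99 to 1.21 without 1 library) was called at 1.1 by DESeq2, 1.1 by limma-voom and 1.09 with no low count filter. CYP706A1 was called under 7 settings, and HSC70-1 without CERK1_3E replicate 1. The sign depended on the library left out for AT3G21660 (-0.70 to 0.096), AT3G21650 (-0.24 to 0.078), AT3G21610 (-0.044 to 0.0057) and CERK1 against CERK1_3D (-0.047 to 0.13). Of the recomputed list medians 491 stayed within their spread and 52 moved beyond it. AT3G21660 had 17 to 38 counts per library, where depth limits its values.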

Other observations

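Among the genes with the largest fold differences, 7 of 12 had libraries of the same line at least 2-fold apart. APD3 had 0.0797 and 0 CPM in CERK1_3E, against 0.142 and 478 CPM in CERK1_WT, so a single library carried the difference, although edgeR called it without CERK1_WT replicate 1. ATMIN7, an ARF-GEF gene of vesicle traffic, had 237 and 156 CPM in CERK1_3E, against 2137 and 2758 CPM in CERK1_WT, but also 146 and 3862 CPM in the libraries of CERK1_3A. DUF6 and AT2G35120 were likewise at 0.0266 and 0.0273 CPM in CERK1_3E, against 8.27 and 2.27 CPM and against 5.84 and 18.6 CPM in CERK1_WT. Libraries of other lines differed as widely, since DUF6 had 8.37 and 0.0276 CPM in CERK1_3A, and AT2G35120 had 6.20 and 0.0275 CPM in CERK1_3D and 0.0264 and 19.6 CPM in CERK1_3A. CuAO1 had 0.558 and 22 CPM in CERK1_3E, against 0.402 and 0.433 CPM in CERK1_WT. HSC70-1, a cytosolic chaperone gene, had 2057 and 823 CPM in CERK1_3E, against 3025 and 2671 CPM in CERK1_WT. It had 311 and 313 CPM in CERK1_3A, but 3010 and 2878 CPM in CERK1_3D, near CERK1_WT. Its call without CERK1_3E replicate 1 left the 823 CPM library as the only one of CERK1_3E.

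AT4G19050 had 2.1 and 3.17 CPM in CERK1_3E and no count in either CERK1_WT library, which makes it at least 34.6-fold higher against a floor of 3 counts per library (counting error only). Its level was 1.58 and 1.05 CPM in CERK1_3D and 3.20 and 0.773 CPM in CERK1_3A, so CERK1_WT was the line that stood apart.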
